A study of Mus musculus with 12 samples.

Results

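The joint difference made by PGC-1alpha and phenformin was taken between PGC-1alpha explants cultured with phenformin and control-line (VC) explants cultured in water, with 3 arrays in each group, 6 of the 12 arrays of the study. Groups were read from the sample titles. All explants were lung metastases of NMuMG-ErbB2 cells, grown after injection into the tail vein of mice, and total RNA was taken after culture. NMuMG is an immortalised mouse mammary epithelial line, and the line name of every group carries ErbB2, a receptor tyrosine kinase that acts as an oncogene in breast cancer.

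The 4 groups were the PGC-1alpha line with 100 µM phenformin for 4 days, the PGC-1alpha line with the water control for 4 days, the VC line with 100 µM phenformin for 4 days, and the VC line with water for 4 days, with 3 arrays each. The labels do not expand VC, so it is called the control line here. They give neither the number of mice behind the 3 arrays of a group nor the number of clones behind each line, so p-values measure the spread between these arrays, which may be technical. Both factors differ at once between the groups compared, and the line also stands for any other difference between the explanted metastases. The PGC-1alpha water and VC phenformin groups were used only to see whether the factors added up or cancelled.

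PGC-1alpha, encoded by Ppargc1a, is a transcriptional coactivator that raises the expression of mitochondrial and oxidative genes through partners such as the estrogen-related and nuclear respiratory factors. Phenformin, a biguanide, blocks complex I, where electrons from NADH enter the respiratory chain, and the fall in cellular energy activates AMP-activated kinase. A cell that receives both has a stimulus for making mitochondria and a block of their electron entry point.

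Ppargc1a had values of 8.18, 8.20 and 8.37 in PGC-1alpha phenformin explants, against 7.21, 7.05 and 7.08 in VC water explants, on the log2 scale of the deposited table. The groups did not overlap, and the difference was 1.14 ± 0.11 (SE; adjusted p = 8.43e-05 by limma, as for every adjusted p below), at least 1.39-fold. An array was counted as above background for a gene whose value exceeded 95% of its negative controls. Where a group had no such array, the fold is a lower bound, and where both had none, no fold is given. The PGC-1alpha water arrays (8.11, 8.06 and 8.26) lay with the PGC-1alpha phenformin arrays, and the VC phenformin arrays (7.11, 7.29 and 6.97) with the VC water arrays.

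The tissue label is lung metastasis explants. Of 38 marker genes of fibroblasts and mural cells, leukocytes, endothelium and lung epithelium, 36 lay in the range of the negative controls on every array, all but Col1a1 and Cd14, and 0 passed the test in the joint comparison. The leukocyte marker Cd14 was above that range on all arrays, at 10.74, 10.79 and 10.79 in PGC-1alpha phenformin explants and 11.02, 11.00 and 11.14 in VC water explants. The mean level of a marker list per array ran from 5.49 to 5.63 in PGC-1alpha phenformin explants and 5.54 to 5.86 in VC water explants for fibroblasts. For leukocytes it was 5.83 to 5.94 in PGC-1alpha phenformin and 5.73 to 6.08 in VC water explants, for endothelium 5.15 to 5.25 in PGC-1alpha phenformin and 5.08 to 5.32 in VC water explants, and for lung epithelium 5.60 to 5.67 in PGC-1alpha phenformin and 5.64 to 5.83 in VC water explants. The ranges of the 2 groups overlapped for each of these 4 lists. Of 11 mammary epithelial markers, 5 (Krt8, Krt18, Krt19, Cdh1 and Erbb2) were above the negative controls on every array, and Epcam, Krt7, the claudins Cldn3 and Cldn4 and the basal keratins Krt5 and Krt14 were not above them on any. Krt7 passed the test, with a difference of -0.52 ± 0.14 (adjusted p = 0.0492) inside the control range, in 1 of the 12 fits that leave out 1 array.

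Arrays of the 2 groups differed in their control probe sets. The median negative control was 5.12, 5.15 and 5.09 in PGC-1alpha phenformin explants, against 4.87, 4.69 and 5.02 in VC water explants, without overlap. The gap between positive and negative control medians was 3.92 to 4.08 in PGC-1alpha phenformin explants and 4.22 to 4.31 in VC water explants. In VC phenformin explants the negative medians were 5.20, 5.18 and 5.09 and the gaps 4.00, 4.07 and 4.03. In PGC-1alpha water explants they were 4.97, 4.99 and 4.88, with gaps of 4.11, 4.15 and 4.24. On both measures the phenformin arrays did not overlap the water arrays, while the 2 lines overlapped. Between 34.6% and 39.1% of genes were above the negative controls per array. VC water array 2 stood apart from the other 11 on the second principal component, at -33.28 against -9.16 to 16.40.

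Of 19505 genes tested, 732 (3.75%) passed an adjusted p of 0.05 in the joint comparison. PGC-1alpha phenformin explants were higher for 313 genes (1.6%) and lower for 419 (2.15%), and 48 rises and 67 falls were 2-fold or larger. The larger number of falls rested on VC water array 3: without it 318 genes were higher and 290 lower. At an unadjusted p under 0.05 there were 3205 genes. In all 732 the 3 arrays of one group lay above the 3 of the other, which was so for 3916 genes (20.1%) of those tested. Both groups lay in the range of the negative controls for 108 of the genes that rose and 107 of those that fell. The count was 487 without VC water array 2, 334 without PGC-1alpha phenformin array 1, 372 without PGC-1alpha phenformin array 3 and 406 without PGC-1alpha phenformin array 2. When each array's gap between its positive and negative controls was added as a covariate, 9 genes passed (6 higher and 3 lower), with 1425 at an unadjusted p under 0.05. That gap does not overlap between the groups, so its part in the joint difference and that of the groups cannot be told apart in this fit.

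To see how the factors combined, each joint difference was split into an average line effect (PGC-1alpha minus VC, mean over both treatments) and an average phenformin effect (phenformin minus water, mean over both lines), whose sum is the joint difference. The line effect passed the test for 1359 genes (6.97%), 360 (1.85%) of them higher and 999 (5.12%) lower in PGC-1alpha explants. The phenformin effect passed for 894 genes (4.58%), 653 (3.35%) higher and 241 (1.24%) lower with phenformin. The control gap also differed without overlap between phenformin and water arrays, so its part in the phenformin effect cannot be told apart. The median joint difference of the genes that fell was -0.65, of which the median line effect was -0.53 and the median phenformin effect -0.11. For the genes that rose the median joint difference was 0.68, with medians of 0.35 for the line and 0.30 for phenformin. These medians are descriptions, since the genes were chosen on the sum.

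A test of the difference between the 2 effects, which shares no covariance with their sum, passed for 1734 genes (8.89%). Among the genes that fell, the line effect was the larger by this test in 214, the phenformin effect in 8, and the effects were not told apart in 197. Among the genes that rose the counts were 59 for the line, 38 for phenformin and 216 not told apart.

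Departure from additivity was tested as the joint difference minus the sum of the line difference in water and the phenformin difference in VC explants. It passed for 0 of 19505 genes (0%) by limma, with 1018 at an unadjusted p under 0.05, and for 0 to 3 genes under the other settings tried. The unadjusted count was 2266 without VC water array 3 and 704 without VC phenformin array 2. Among genes called in the joint comparison, 22 that rose and 49 that fell had an unadjusted p under 0.05. The median departure was -0.09 among genes that rose, -0.12 among those that fell and -0.03 over all genes, beside a median standard error of 0.19, 0.18 and 0.20. The smallest departure p-values were those of Akr1c18 (-1.74 ± 0.27), Mal (-1.18 ± 0.19), Clic3 (-1.52 ± 0.25), Adamts15 (1.00 ± 0.17) and Slc6a13 (0.96 ± 0.17), and their adjusted p-values ran from 0.164 to 0.228. Departures several times their standard error were thus not called with 3 arrays a group, and the count of 0 does not show that the effects added up in every gene.

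**Figure D1:**
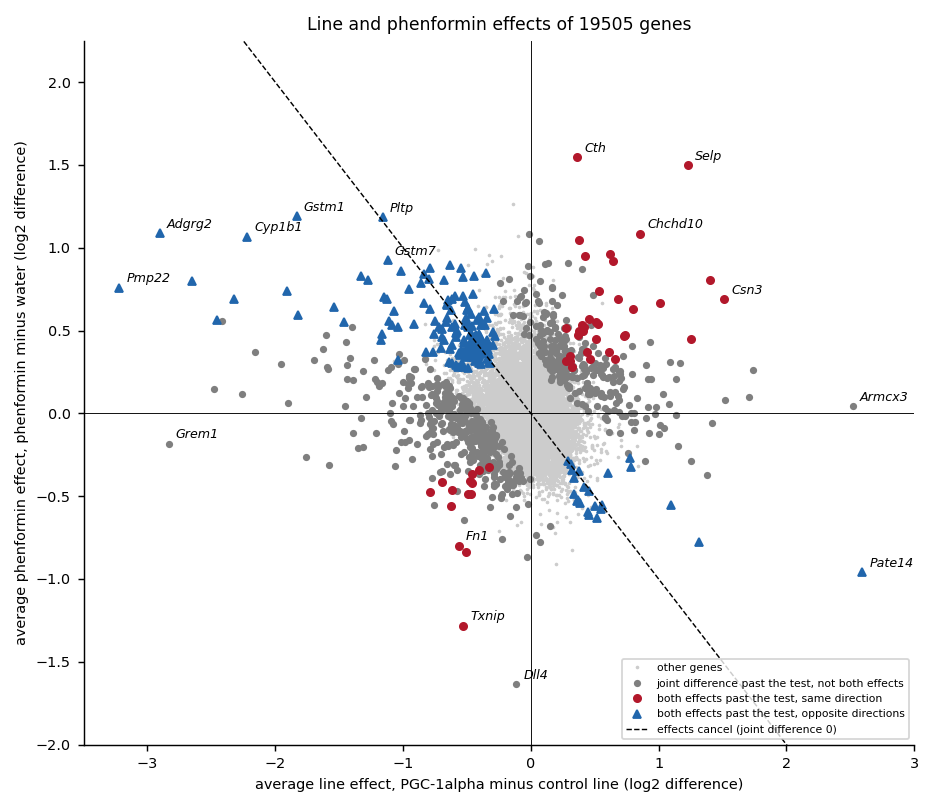
Each point is 1 of 19505 genes, with the average line effect on the x axis and the average phenformin effect on the y axis, both as log2 differences; on the dashed line the joint difference is 0. The 48 genes with both effects in the same direction (red circles) lie away from the line, and most of the 168 with opposite effects (blue triangles) lie in the upper left, where PGC-1alpha explants were lower and phenformin cultures higher.

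Both effects passed in the same direction for 48 genes (0.246%), 34 higher and 14 lower, and in opposite directions for 168 genes (0.861%). Of the opposite ones, 145 were lower in the PGC-1alpha line and higher with phenformin, and 23 were the reverse. All 48 genes of the first kind passed in the joint comparison, which follows from the arithmetic of the sum, and 19 of the 168 did.

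The 15 largest rises were led by Selp, Armcx3, Slc44a3 and Csn3. The line effect passed for 15 of the 15, and the phenformin effect was higher for 10 and lower for 1. All 15 passed in each of the 12 fits that leave out 1 array, and 12 of them did not pass with the control covariate. These counts are descriptions, since the genes were chosen on the sum of both effects in the same arrays.

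Selp, P-selectin, an adhesion receptor known from platelets and endothelium, rose most. It had 10.30, 10.16 and 10.20 in PGC-1alpha phenformin explants, 8.55, 8.45 and 9.45 in PGC-1alpha water, 9.05, 9.18 and 9.03 in VC phenformin and 8.10, 6.81 and 7.57 in VC water explants. The groups with 1 factor lay between the outer groups, without overlap with either. The joint difference was 2.73 ± 0.28 (6.62-fold, adjusted p = 9.64e-05), made of 1.23 ± 0.20 for the line and 1.50 ± 0.20 for phenformin, with a departure of -0.19 (95% interval -1.04 to 0.67). All 9 endothelial markers were in the range of the negative controls on every array, and the cell source of Selp was not tested.

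Chchd10, a protein of the mitochondrial intermembrane space, had the same order. It had 10.36, 10.40 and 10.22 in PGC-1alpha phenformin explants, 9.17, 9.17 and 9.76 in PGC-1alpha water, 9.48, 9.60 and 9.71 in VC phenformin and 8.83, 8.23 and 8.10 in VC water explants. The arrays with 1 factor overlapped each other and neither outer group. The joint rise was 1.94 ± 0.19 (3.84-fold, adjusted p = 5.85e-05), with 0.86 ± 0.13 from the line and 1.08 ± 0.13 from phenformin and a departure of -0.25 (95% interval -0.83 to 0.32). Of 15 mitochondrial stress proteins it was the member that passed, and 3.75% of all genes passed. The list's median was 0.04, beside -0.02 for all genes.

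Csn3, the milk protein kappa-casein, had 9.15, 8.83 and 8.83 in PGC-1alpha phenformin explants and 6.98, 6.38 and 6.85 in VC water explants. It rose at least 2.23-fold (2.20 ± 0.17, adjusted p = 9.82e-06), with a line effect of 1.51 and a phenformin effect of 0.69. Of 16 mammary differentiation genes, Csn3 rose and Xdh, the xanthine dehydrogenase of milk fat globules, fell (-1.02 ± 0.19, adjusted p = 0.00661). The list's median was -0.04, beside -0.02 for all genes, of which 1.6% rose and 2.15% fell.

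Cth, cystathionine gamma-lyase, which releases cysteine in transsulfuration, rose through phenformin above all. It had 8.93, 8.85 and 8.63 in PGC-1alpha phenformin explants and 8.33, 8.22 and 8.10 in VC phenformin, against 6.97 to 7.14 in PGC-1alpha water and 6.82, 6.96 and 6.91 in VC water explants. Every phenformin array lay above every water array, and within phenformin the PGC-1alpha arrays lay above the VC arrays. The joint difference of 1.91 ± 0.11 (at least 2.03-fold, adjusted p = 1.13e-06) held a phenformin effect of 1.54 ± 0.08 and a line effect of 0.36 ± 0.08 (adjusted p = 0.011), and the phenformin effect was the larger (adjusted p of the difference = 1.96e-05).

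In other rises the estimate of the line effect was the larger. Ugt2b34, a glucuronosyltransferase that makes lipophilic compounds water-soluble, had 9.42, 9.33 and 9.42 in PGC-1alpha phenformin explants against 7.60, 7.38 and 8.07 in VC water explants (3.26-fold, 1.70 ± 0.16, adjusted p = 4.07e-05), with parts of 1.25 and 0.45. Rab3b, a GTPase of regulated secretion, rose at least 2.32-fold (1.67 ± 0.13), with parts of 1.01 and 0.67. These parts were not told apart (adjusted p of the difference = 0.114). The mitochondrial carrier Slc25a23, which moves ATP-magnesium against phosphate, rose at least 1.16-fold (1.47 ± 0.20) and the ephrin receptor Epha5 at least 1.07-fold (1.60 ± 0.15), both with a line effect that passed (1.17 and 1.52) and a phenformin effect that did not (0.31 and 0.08).

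The remaining 7 of the 15 lay in the range of the negative controls in both groups, and no fold is given for them. Among these Armcx3, a mitochondrial outer membrane protein, had 6.89, 6.89 and 6.94 in PGC-1alpha phenformin explants and 4.88, 3.93 and 4.23 in VC water explants. Its difference of 2.56 ± 0.23 was a line effect of 2.52 with 0.04 from phenformin. Slc44a3 of the choline transporter-like family (2.20 ± 0.16), the Golgi GTPase Rab6b (1.56 ± 0.18), the omega class glutathione transferase Gsto2 (1.58 ± 0.17) and the carbonyl reductase Cbr1 (1.43 ± 0.15) had both effects past the test, all of them positive. Tlcd4 rose with the line (1.74), and Pate14 is described with the cancelling genes. Ints6l (1.37 ± 0.16, adjusted p = 0.000256), also in the control range, was split almost evenly into 0.68 for the line and 0.69 for phenformin.

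**Figure D2:**
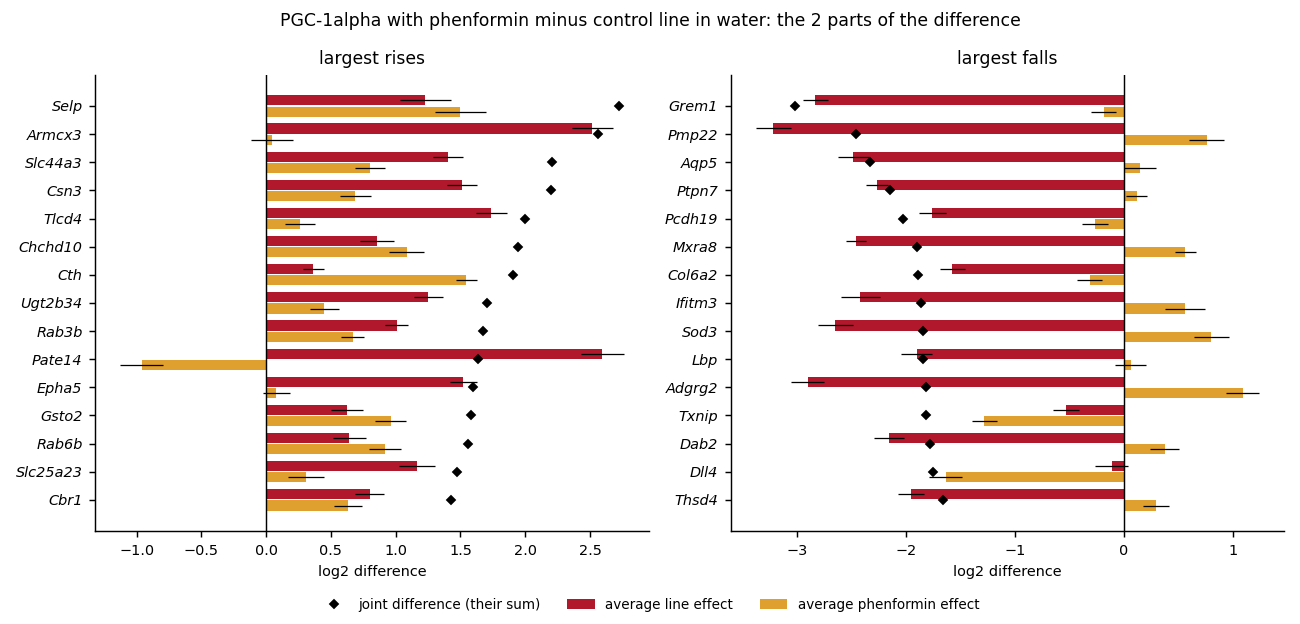
Bars give the average line effect (red) and average phenformin effect (yellow) with standard errors, and diamonds their sum, the joint log2 difference, for the 15 largest rises (left) and falls (right). Selp, Chchd10 and Cbr1 show bars of similar length on one side, Grem1 and Armcx3 almost only a line bar, Dll4 almost only a phenformin bar, and Pmp22, Adgrg2 and Pate14 bars on opposite sides.

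Among the 15 largest falls, also chosen on the sum of both effects, the line effect passed more often than the phenformin effect. The line effect was lower for 14 of the 15, while the phenformin effect was lower for 2 and higher for 4. All 15 passed in each fit that leaves out 1 array, and 13 did not pass with the control covariate. As for the rises, the counts describe the chosen genes.

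Grem1, gremlin 1, a secreted antagonist of bone morphogenetic proteins (BMPs), fell most. It had 7.12, 6.69 and 7.02 in PGC-1alpha phenformin explants and 6.88, 7.38 and 7.54 in PGC-1alpha water, against 9.85, 10.03 and 9.87 in VC phenformin and 10.08, 9.84 and 9.96 in VC water explants. The 2 lines did not overlap and the treatments within a line did. The difference was -3.02 ± 0.16, at least 4.04-fold lower (adjusted p = 6.89e-07), with -2.83 ± 0.11 from the line and -0.18 ± 0.11 from phenformin (adjusted p = 0.39). Grem1 was among the 9 genes past the test with the control covariate. Of 19 BMP genes, Id1 (0.42 ± 0.10), Id2 (0.52 ± 0.10) and Id3 (0.45 ± 0.10), transcription regulators that BMP signals induce, rose and Grem1 fell. Id2 passed in each of the 12 fits that leave out 1 array, Id3 in 8 and Id1 in 3. The list's median was 0.07, and 1.6% of all genes rose and 2.15% fell.

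Aqp5, a water channel of secretory epithelium, had 8.09, 7.51 and 8.04 in PGC-1alpha phenformin explants against 9.89, 10.29 and 10.46 in VC water explants. It fell by 2.33 ± 0.21 on the log2 scale (5.04-fold lower, adjusted p = 3.23e-05), with -2.48 from the line and 0.15 from phenformin. Of 13 water channels and tetraspan proteins, 5 fell, among them Pmp22, Emp2, Aqp1 and Mal, and Aqp9, which also carries glycerol, rose inside the control range (1.06 ± 0.16). Their median was -0.36, and 2.15% of all genes fell and 1.6% rose.

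The surface and immune genes among the largest falls followed the line as well. Ptpn7, a tyrosine phosphatase known from lymphoid cells, fell at least 1.66-fold (-2.15 ± 0.14), Dab2, an endocytic adaptor, at least 2.98-fold (-1.78 ± 0.19), and Lbp, which carries bacterial lipopolysaccharide to its receptor, 3.58-fold (-1.84 ± 0.20). None of the 3 had a phenformin effect past the test. Of the leukocyte markers, the pan-leukocyte antigen Ptprc was in the range of the negative controls on every array. Cd14 was above that range on every array and lower in PGC-1alpha phenformin than in VC water explants, without passing the test. The cell source of these falls was not tested. Pcdh19, an adhesion protocadherin (-2.03 ± 0.17), and Thsd4, a matrix protein (-1.66 ± 0.17), fell, too close to or inside the control range for a fold to be given.

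Of 23 measured collagens, lysyl oxidases and matrix genes, 10 fell and 0 rose, against 2.15% and 1.6% of all genes. Their median was -0.29 beside -0.02 for all genes, and 12 of the 23 lay in the range of the negative controls on every array. Col6a2, an alpha chain of the microfibril collagen VI, had 8.55, 8.06 and 8.53 in PGC-1alpha phenformin explants and 10.02, 10.27 and 10.52 in VC water explants (3.71-fold lower, -1.89 ± 0.16, adjusted p = 2.59e-05). The 2 groups lay far apart, and Col6a1, another chain of collagen VI, fell by 1.52 ± 0.16. Thrombospondin 1, Thbs1, an inhibitor of angiogenesis and activator of TGF-beta, fell 2.95-fold (-1.56 ± 0.12), with 8.70, 8.88 and 9.13 against 10.36, 10.41 and 10.63. For Col6a2, Col6a1 and Thbs1 the line effect (-1.58, -1.31 and -1.35) passed and the phenformin effect (-0.31, -0.20 and -0.21) did not.

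Fibronectin, Fn1, the matrix glycoprotein bound by alpha5 integrin, drew on both factors. It had 10.07, 9.83 and 9.88 in PGC-1alpha phenformin explants, 10.97, 11.24 and 10.73 in PGC-1alpha water, 10.72, 10.84 and 10.69 in VC phenformin and 10.99, 11.37 and 11.51 in VC water explants. PGC-1alpha phenformin arrays lay below all 9 others. The joint difference of -1.36 ± 0.15 (2.58-fold, adjusted p = 0.000175) held -0.56 from the line and -0.80 from phenformin, and the departure was -0.52 (95% interval -0.98 to -0.05, adjusted p = 0.928). Itga5, the alpha5 integrin, fell at least 1.76-fold (-0.97 ± 0.19), and lost its call without PGC-1alpha phenformin array 3.

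The fibroblast collagens did not pass. Col1a1 (-0.13), Col1a2 (-0.09) and Col3a1 (-0.16) were in the range of the negative controls in all but 1 array of Col1a1. In RNA from whole explants, fewer cells of a type and less RNA per cell cannot be told apart. Of 20 mesenchymal transition genes, 4 fell, including Fn1, Itga5 and Foxc2, and Ccn2, a matricellular protein induced by TGF-beta and YAP, rose 1.95-fold (0.97 ± 0.11, adjusted p = 0.000179). Their median was -0.16, and 2.15% of all genes fell and 1.6% rose.

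Of 6 measured genes of the urokinase system, 4 fell and 0 rose, against 2.15% and 1.6% of all genes, with a median of -0.71. The urokinase gene Plau had 7.04, 6.77 and 6.87 in PGC-1alpha phenformin explants, against 7.89, 7.71 and 8.01 in VC water explants, a difference of -0.98 ± 0.14 (adjusted p = 0.00102) with no fold bounded above 1. Its line and phenformin effects were -0.49 each. The serpins Serpinb2, an inhibitor of urokinase, and Serpinb5, maspin, fell 2.10-fold (-1.07 ± 0.13) and 2.30-fold (-1.20 ± 0.16), both with a line effect past the test (-0.89 and -0.93) and none from phenformin. The tissue activator Plat fell 1.35-fold (-0.43 ± 0.10) in the 12-array fit and in 7 of the 12 fits that leave out 1 array.

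Of 26 interferon response genes, 4 fell and 0 rose, against 2.15% and 1.6% of all genes. Of the 26, 20 lay in the range of the negative controls on every array. Their median was -0.27. Ifitm3, which restricts virus entry, had 8.56, 8.69 and 8.24 in PGC-1alpha phenformin explants and 10.96, 9.92 and 10.19 in VC water explants, and fell 3.63-fold (-1.86 ± 0.26, adjusted p = 0.000916). The line effect was -2.42. Xaf1, Ifi27 and Irf7 fell inside the control range (-1.02, -1.03 and -0.69), and Irf7 passed in 4 of the 12 fits that leave out 1 array. Of 14 class I antigen presentation genes, 1 fell, the peptide-trimming Erap1 (-0.44 ± 0.11, in 4 of the 12 fits).

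Cholesterol synthesis genes moved with phenformin. The pathway turns acetyl-CoA through mevalonate and squalene into cholesterol, under SREBP2 control. Of 19 measured members, 7 fell and 0 rose, against 2.15% and 1.6% of all genes. Of the 19, 1 had a positive difference, and the median was -0.45 beside -0.02 for all genes. The median phenformin effect of the list was -0.36 and its median line effect -0.03; the phenformin effect was lower for 14 of the 19 (1.24% of all genes) and the line effect for 1 (5.12%). A single form of the sterol regulatory element, searched on both strands as ATCAC and CCAC with N between them, was in the promoters of 0 of 15 members with an entry. It was in 0.234% of all promoters. A form this rare would seldom appear in 15 genes, so the count of 0 cannot show whether they hold sterol elements of other forms.

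Cyp51, lanosterol demethylase, had 9.45, 9.38 and 9.61 in PGC-1alpha phenformin explants and 9.54, 9.56 and 9.39 in VC phenformin, against 10.31, 10.41 and 10.29 in PGC-1alpha water and 10.13, 10.37 and 10.63 in VC water explants. The phenformin groups overlapped each other and lay below both water groups. It fell 1.86-fold (-0.89 ± 0.13, adjusted p = 0.00121), with -0.87 from phenformin and -0.03 from the line. Insig1, which retains the SREBP complex in the endoplasmic reticulum and is itself an SREBP target, fell 1.63-fold (-0.71 ± 0.10), Hmgcs1, which makes HMG-CoA, 1.66-fold (-0.73 ± 0.11), and lanosterol synthase, Lss, 1.48-fold (-0.57 ± 0.10). These 4 passed in each fit that leaves out 1 array. The other 3, Hsd17b7, Sc5d and Stard4, fell by 0.59, 0.45 and 0.43. Among 13 fatty acid synthesis genes the desaturases Fads1 (-0.55 ± 0.11) and Fads2 (-0.40 ± 0.10) fell, in 9 and 4 of the 12 fits. The median of these 13 was -0.14, and 2.15% of all genes fell.

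Of the Notch ligands, Dll4 and Jag1 fell with phenformin and Jag2 with the line. Dll4, the delta-like ligand of vessel sprouting, had 6.63, 5.96 and 6.67 in PGC-1alpha phenformin explants, against 7.79, 8.24 and 8.49 in VC water explants. It fell at least 1.17-fold (-1.75 ± 0.21, adjusted p = 0.000346), with -1.64 ± 0.15 from phenformin and -0.11 ± 0.15 from the line. Jag1 fell 1.62-fold (-0.70 ± 0.14), also with phenformin (-0.74) and not the line (0.04), and lost its call without PGC-1alpha phenformin array 1. Jag2 fell with the line (-1.14 ± 0.12, of which -1.08 line and -0.06 phenformin). The receptor Notch2 fell 1.47-fold in 7 of the 12 fits that leave out 1 array. In all, 4 of 18 Notch genes fell and 0 rose, against 2.15% and 1.6% of all genes, and the median was -0.19. Of the 18, 8 lay in the range of the negative controls on every array.

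Txnip, an arrestin-like protein that blocks thioredoxin and glucose uptake, had its lowest values where both factors were present. It had 7.42, 7.79 and 7.80 in PGC-1alpha phenformin explants and 8.42, 8.58 and 8.55 in VC phenformin, against 9.37, 9.48 and 8.95 in PGC-1alpha water and 9.23, 9.49 and 9.73 in VC water explants. The PGC-1alpha phenformin arrays lay below all others, and the 2 water groups overlapped. The joint difference of -1.81 ± 0.16 (at least 2.90-fold, adjusted p = 3.55e-05) held -1.28 ± 0.12 from phenformin and -0.53 ± 0.12 from the line, with a departure of -0.63 (95% interval -1.12 to -0.13) that did not pass after adjustment (adjusted p = 0.928). Of 5 genes on the MondoA list, Txnip was the member that passed, and 3.75% of all genes passed. The other 4, Arrdc3, Arrdc4, Mlxip and Mlxipl, had positive differences of 0.05 to 0.24 that did not pass, and the list's median was 0.16.

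The promoter of Txnip is shown because it holds the paired boxes through which MondoA and ChREBP bind. It is the RefSeq entry of GRCm38.p6 at chr3:96557707-96558006, + strand, 300 bases around the gene's start, and capitals mark the carbohydrate response element.
Txnip: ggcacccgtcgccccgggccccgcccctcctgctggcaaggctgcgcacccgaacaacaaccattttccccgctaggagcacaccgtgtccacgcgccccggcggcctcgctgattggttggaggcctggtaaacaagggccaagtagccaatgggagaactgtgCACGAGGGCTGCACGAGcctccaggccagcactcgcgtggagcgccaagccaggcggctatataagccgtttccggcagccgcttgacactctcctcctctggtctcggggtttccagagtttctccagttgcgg
The motif was searched on both strands as a pair of CACGNG boxes separated by NNNNN, and the match spans -85 to -69 from the start. Of 32851 promoters of this length, 16 (0.0487%) hold it, and Txnip was the 1 of 5 genes on the MondoA list with a match. A match is a description of these letters, not of binding.

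ATF4 targets, the amino acid and stress response genes, rose in part. Of 27 measured, 4 rose and 0 fell, against 1.6% and 2.15% of all genes. Their median was 0.22 beside -0.02 for all genes, and the median phenformin effect was 0.17 against 0.07 for the line. After Cth, the glutathione-cleaving enzyme Chac1 rose most, with 8.94, 8.81 and 8.94 in PGC-1alpha phenformin explants and 8.03, 7.75 and 7.74 in VC water explants (2.08-fold, 1.06 ± 0.16, adjusted p = 0.00195). Its groups did not overlap, and its line and phenformin effects were 0.51 and 0.55. The lipoprotein receptor Vldlr rose 1.38-fold (0.46 ± 0.11) with a phenformin effect of 0.68, and Ddit3, the transcription factor CHOP, rose 1.49-fold (0.58 ± 0.14), in 6 and 3 of the 12 fits that leave out 1 array. Of 18 aminoacyl-tRNA synthetases, 1 rose, the seryl enzyme Sars (0.44 ± 0.10, in 7 of the 12 fits).

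The promoters of Chac1 and Vldlr are shown because ATF4 acts through the composite C/EBP-ATF element, searched as TGATGNAAN on both strands and marked in capitals. They are RefSeq entries of GRCm38.p6, at chr2:119350992-119351291 for Chac1 and chr19:27216770-27217069 for the downstream of 2 Vldlr starts, both on the + strand.
Chac1: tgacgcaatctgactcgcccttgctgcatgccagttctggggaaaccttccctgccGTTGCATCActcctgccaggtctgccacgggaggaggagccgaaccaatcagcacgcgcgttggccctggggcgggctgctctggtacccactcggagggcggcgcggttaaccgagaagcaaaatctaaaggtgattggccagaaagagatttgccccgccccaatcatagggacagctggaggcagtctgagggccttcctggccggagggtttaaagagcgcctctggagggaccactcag
Vldlr: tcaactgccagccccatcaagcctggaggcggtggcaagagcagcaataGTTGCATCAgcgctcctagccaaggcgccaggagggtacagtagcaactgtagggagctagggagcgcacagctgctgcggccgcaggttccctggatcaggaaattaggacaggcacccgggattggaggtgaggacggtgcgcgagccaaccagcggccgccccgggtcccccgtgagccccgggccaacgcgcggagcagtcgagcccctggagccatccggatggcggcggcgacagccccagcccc
The matches span -194 to -186 in Chac1 and -201 to -193 in Vldlr. The motif is in 3.95% of all promoters and in at least 1 promoter of 8 of the 24 ATF4 targets with an entry. The targets are counted per gene, which can have several promoters, so the 2 measures are not alike. Of the 3 called targets with an entry 2 hold the motif, and the upstream Vldlr start has 0 matches.

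**Figure D3:**
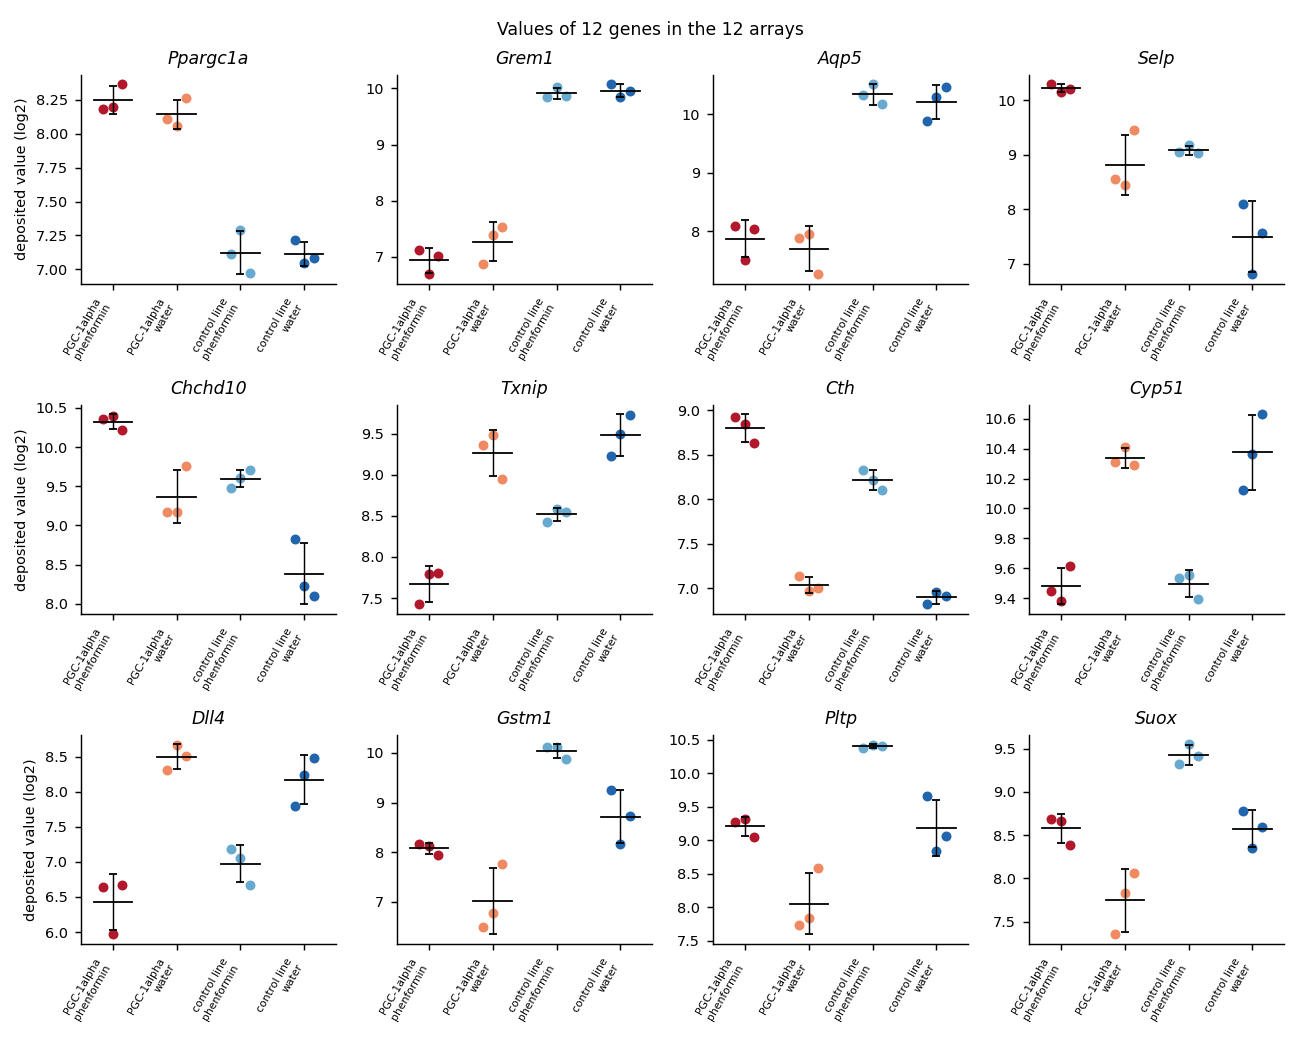
Deposited log2 values of 12 genes in the 12 arrays (points), with group means and standard deviations of 3 arrays; groups run from PGC-1alpha with phenformin on the left to control line in water on the right, and each y axis has its own range. Grem1 and Aqp5 split by line, Cyp51 and Dll4 by treatment, Selp, Chchd10 and Txnip have their extreme in the group with both factors, and Pltp and Suox have their outer groups level.

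In some genes opposite effects passed and the joint difference did not. Gstm1, a mu class glutathione transferase, had 8.16, 8.11 and 7.95 in PGC-1alpha phenformin explants, 6.49, 6.77 and 7.77 in PGC-1alpha water, 10.11, 10.11 and 9.87 in VC phenformin and 9.25, 8.17 and 8.74 in VC water explants. The outer groups lay next to each other without overlap, and VC phenformin arrays were the highest. A line effect of -1.83 ± 0.20 and a phenformin effect of 1.19 ± 0.20 left a joint difference of -0.64 ± 0.29 that did not pass (adjusted p = 0.277).

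Pltp, the phospholipid transfer protein, had 9.27, 9.31 and 9.05 in PGC-1alpha phenformin explants and 9.65, 8.84 and 9.07 in VC water explants, which overlapped, while PGC-1alpha water explants had 7.74, 7.84 and 8.58 and VC phenformin explants 10.37, 10.42 and 10.41. Its effects of -1.16 and 1.19 left 0.03 ± 0.22. Suox, the mitochondrial sulfite oxidase, had effects of -0.83 and 0.84 and a joint difference of 0.01 ± 0.17, with overlapping groups (8.69, 8.66 and 8.39 against 8.78, 8.36 and 8.59). These standard errors leave room for differences of their own size in either direction.

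Of 22 glutathione transferases, 11 had a phenformin effect past the test and higher and 0 lower, against 3.35% and 1.24% of all genes. Among the 22, 12 lay in the range of the negative controls on every array. The line effect was lower for 5 and higher for 1, against 5.12% and 1.85% of all genes. In the joint comparison 1 rose (Gsto2) and 1 fell (the microsomal Mgst3, -0.55 ± 0.13, in 7 of the 12 fits that leave out 1 array), and the median was 0.01. Opposite effects passed together for 4 of the 22 (0.861% of all genes), Gstm1, Gstm2, Gstm7 and Gsta2, and same-direction effects for Gsto2. Gstm2 and Gstm7 had joint differences of -0.16 and -0.20, in the control range in both groups. Probe sets of such close paralogues can share signal, which was not tested.

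Of 17 carbonyl and xenobiotic oxidation genes, 8 had a higher phenformin effect (3.35% of all genes) and 6 a lower line effect (5.12%). In the joint comparison 2 rose and 2 fell, against 1.6% and 2.15% of all genes, with a median of 0.09. Cyp1b1, a P450 that oxidises estrogens and aromatic hydrocarbons, had 6.43, 6.60 and 6.48 in PGC-1alpha phenformin explants, 5.39, 5.92 and 6.21 in PGC-1alpha water, 9.05, 9.20 and 9.13 in VC phenformin and 8.01, 7.53 and 7.43 in VC water explants. Both PGC-1alpha groups lay below both VC groups, and phenformin arrays above water arrays within each line. Its joint difference of -1.16 ± 0.19 (adjusted p = 0.00301) was the remainder of -2.22 and 1.07. Aldh3a1, an aldehyde dehydrogenase, fell at least 1.08-fold (-0.50 ± 0.11; effects -1.33 and 0.83) in 8 of the 12 fits. The oxysterol hydroxylase Cyp39a1 rose 1.89-fold (0.92 ± 0.15), with 0.76 from phenformin and 0.16 from the line.

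Several of the largest falls were also remainders. Pmp22, a tetraspan protein of myelin and epithelium, had 6.37, 6.68 and 6.50 in PGC-1alpha phenformin explants, against 9.41, 8.63 and 8.89 in VC water explants. Its difference of -2.46 ± 0.23 (at least 2.04-fold lower, adjusted p = 4.04e-05) was a line effect of -3.22 and a phenformin effect of 0.76. Sod3, the secreted superoxide dismutase, averaged 9.19 ± 0.17 in PGC-1alpha phenformin explants and 11.04 ± 0.36 in VC water explants (SD, n = 3 each), a difference of -1.85 ± 0.23 (3.60-fold lower, adjusted p = 0.000388) from -2.65 and 0.80. It was the 1 of 16 superoxide and peroxide genes that passed, and 3.75% of all genes passed. Loxl3, a lysyl oxidase that cross-links collagen, fell at least 1.66-fold (-1.63 ± 0.16; effects -2.32 and 0.69) and Mal, a raft protein of apical transport, at least 1.63-fold (-0.91 ± 0.13; effects -1.46 and 0.55).

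Mxra8, a matrix remodelling protein (-1.90 ± 0.13), and the adhesion receptor Adgrg2 (-1.81 ± 0.22) fell inside the control range, with phenformin effects of 0.56 and 1.09. In Adgrg2 the PGC-1alpha arrays did not leave that range under phenformin (5.46, 5.61 and 5.50), whereas VC phenformin arrays reached 8.89, 9.46 and 8.82, and the departure was -1.26 (95% interval -1.92 to -0.61, adjusted p = 0.928). The reverse pattern was Pate14, a small secreted protein of the PATE family, with a line effect of 2.60 and a phenformin effect of -0.96 (joint 1.64 ± 0.23, control range).

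Of 21 NRF2 target genes, 3 rose and 1 fell, against 1.6% and 2.15% of all genes. Those that rose were Cbr1, in the control range, the glutathione synthesis subunit Gclm (0.48 ± 0.12) and the UDP-glucose dehydrogenase Ugdh (0.43 ± 0.10). The efflux pump Abcc1, which exports glutathione conjugates, fell 1.81-fold (-0.86 ± 0.12, adjusted p = 0.000822). Gclm and Ugdh passed in 6 and 7 of the 12 fits that leave out 1 array, and the median was 0.02. The element TGACNNNGC was in at least 1 promoter of 8 of 17 NRF2 targets with an entry, a count per gene. It was in 12.4% of all promoters, a share per promoter.

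Most complex I genes had small positive differences, as had most genes of the other respiratory complexes and of both ribosomes, and few passed. Of 35 complex I genes, 4 rose and 0 fell, against 1.6% and 2.15% of all genes. Among the 35, 25 had a positive difference, and the median was 0.20. Ndufa1, an accessory subunit of the membrane arm, had 8.51, 8.47 and 8.60 in PGC-1alpha phenformin explants and 8.06, 7.63 and 8.02 in VC water explants (1.54-fold, 0.62 ± 0.13, adjusted p = 0.0175). Ndufab1, the acyl carrier protein, Ndufb3 and Ndufc1 rose by 0.54, 0.49 and 0.44. These 4 passed in 8, 4, 6 and 4 of the 12 fits that leave out 1 array, and none of them without VC water array 2. Of 27 genes of complexes II to IV and cytochrome c, 0 passed, and the lowest adjusted p was 0.0928, for the succinate dehydrogenase subunit Sdhc (0.60 ± 0.18). Of 15 ATP synthase genes, 1 fell, the coupling factor Atp5j (-0.46 ± 0.11, in 5 of the 12 fits).

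Of 76 mitochondrial ribosomal proteins, Mrps21 rose (0.70 ± 0.18, in 3 of the 12 fits) and Mrpl39 (-0.60 ± 0.10) and Mrpl40 (-0.75 ± 0.12) fell, with a median of 0.09. Over all genes 1.6% rose and 2.15% fell, so 1 rise and 2 falls among 76 lie near those shares. Of 61 cytosolic ribosomal proteins 0 passed, with a median of 0.14. Positive differences were held by 52 of the 76 and 48 of the 61 ribosomal genes. They were also held by 19 of 27 genes of complexes II to IV and cytochrome c and 12 of 15 ATP synthase genes. The medians of these 5 lists, complex I included, were all above that of all genes (-0.02), and the part of the differing control probe sets in this was not tested. Of 16 PGC-1 coactivators and partners, Ppargc1a rose and Gabpa, a subunit of nuclear respiratory factor GABP, fell (1.45-fold, -0.54 ± 0.10, adjusted p = 0.0104). The Gabpa call was lost without PGC-1alpha phenformin array 1, and the median of these 16 genes was 0.12.

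Oxidative and glycolytic enzymes mostly did not pass. Of 15 tricarboxylic acid cycle genes 0 passed, of 18 fatty acid oxidation genes the thiolase Acaa2 fell (-0.63 ± 0.13, in 10 of the 12 fits), and of 23 glycolysis and lactate genes the glucose transporter Slc2a1 fell 1.67-fold. Slc2a1 had 11.27, 11.43 and 10.98 in PGC-1alpha phenformin explants and 11.89 to 12.01 in VC water explants (-0.74 ± 0.15, adjusted p = 0.0117), a line effect of -0.72, and lost its call without PGC-1alpha phenformin array 3. Of 18 hypoxia targets, 3 fell, with a median of -0.22: Angptl4, an inhibitor of lipoprotein lipase (-0.63 ± 0.13), the prolyl hydroxylase Egln3 (-0.50 ± 0.12) and the collagen prolyl hydroxylase P4ha1 (-0.63 ± 0.16). They passed in 9, 7 and 2 of the 12 fits, and 2.15% of all genes fell.

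Of 20 AMPK and nutrient sensing genes, 2 rose and 0 fell, against 1.6% and 2.15% of all genes. The list's median was -0.02, the same as that of all genes, and 11 of the 20 had a negative difference. Prkaa2, the alpha2 catalytic subunit of AMPK, had 8.35, 8.52 and 8.63 in PGC-1alpha phenformin explants, 7.79, 7.90 and 8.11 in PGC-1alpha water, 7.86, 8.13 and 8.11 in VC phenformin and 7.60, 7.51 and 7.59 in VC water explants. The outer groups lay apart from the inner ones, which overlapped each other, and the rise was at least 1.65-fold (0.94 ± 0.12, adjusted p = 0.000568), with 0.42 from the line and 0.52 from phenformin. The arginine sensor Castor1 rose in the control range (0.57 ± 0.12, in 9 of the 12 fits), through phenformin (0.68). Of 8 biguanide transporters, the drug efflux pumps Abcb1b (1.62-fold, 0.70 ± 0.12) and Abcb1a (1.54-fold, 0.63 ± 0.14, in 8 of the 12 fits) rose, with line effects of 0.71 and 0.50 and phenformin effects of -0.02 and 0.12 that did not pass. The median of the 8 was 0.12, and 5 of them lay in the range of the negative controls on every array.

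Of 12 small heat shock and cytosolic chaperone genes, Hspb6 rose 2.41-fold (1.27 ± 0.25, adjusted p = 0.0115) and Hspb1 1.76-fold (0.82 ± 0.17, adjusted p = 0.0166), with phenformin effects of 0.87 and 0.83. Hspb6 lost its call without PGC-1alpha phenformin array 1, and Hspb1 passed in 8 of the 12 fits. The chaperone list's median was -0.003, beside -0.02 for all genes, of which 1.6% rose and 2.15% fell. Of 18 circadian clock genes, the activator Arntl rose 1.61-fold (0.69 ± 0.15), through phenformin (0.75), and the repressor Bhlhe40 fell 1.34-fold (-0.42 ± 0.10), through the line (-0.48), each in 7 of the 12 fits. The clock list's median was -0.23, and 12 of the 18 had a negative difference. Of 22 lysosomal genes, the alpha-galactosidase Gla rose 1.78-fold (0.83 ± 0.17), a call lost without PGC-1alpha phenformin array 3, and the cholesterol exporter Npc1 fell 1.54-fold (-0.62 ± 0.12). The lysosomal list's median was 0.07.

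Growth and division genes gave few calls, beside 1.6% of all genes that rose and 2.15% that fell. Of 23 ErbB receptors, ligands and feedback genes 0 passed, and Erbb2 itself differed by -0.03. Of 23 DNA replication genes, the helicase subunit Mcm4 (-0.51 ± 0.12) and cyclin E1, Ccne1 (-0.53 ± 0.11), fell, in 6 and 11 of the 12 fits that leave out 1 array, and of 23 mitosis genes Birc5, survivin, fell (-0.40 ± 0.10, in 2 of the 12 fits). Of 19 p53 targets 0 passed, and of 17 unfolded protein response genes the chaperone Dnajb11 fell (-0.51 ± 0.13, in 1 of the 12 fits). Of 22 chemokines and Lcn2, the monocyte chemokine Ccl7 fell at least 1.17-fold (-0.72 ± 0.13). Over the 41 lists other than markers, 5 had 0 members past the test and 12 had 1. Of all genes 3.75% passed, so 1 call in a list of 17 to 23 genes is near that share.

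**Figure D4:**
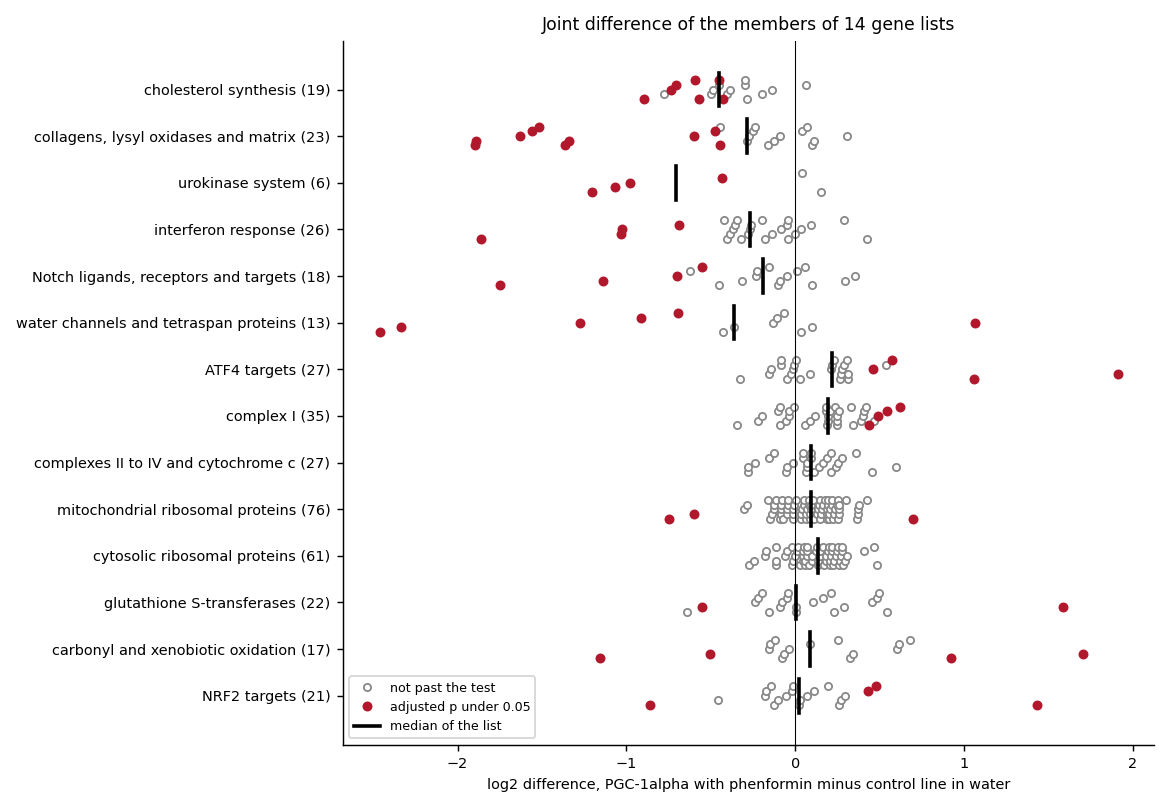
Joint log2 difference, PGC-1alpha with phenformin minus control line in water, of each measured member of 14 gene lists (number of members in brackets), with filled points for adjusted p under 0.05 and a bar at the list's median. Called members of the cholesterol, matrix, urokinase, interferon and Notch lists lie left of 0, those of the ATF4 and complex I lists right of 0, and those of the glutathione transferase list on both sides.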

How the data were processed

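Affymetrix Clariom S mouse arrays measured the RNA of 12 explant samples. The authors deposited 1 table of 28815 probe sets whose values, from 1.50 to 13.65 with like medians per array, were read as normalized log2 values. The sources used here give neither their log base nor the normalization method. The 12 value columns of a second deposited table match no label and were not used.

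The 19572 probe sets with exactly 1 gene symbol gave 19505 genes, each by its probe set with the highest mean over 12 arrays. limma 3.58.1 (R 4.3.3) fitted group means over the 12 arrays without covariates, with two-sided tests, Benjamini-Hochberg adjustment over all genes of a contrast and a threshold of 0.05. The joint contrast was PGC-1alpha with phenformin minus VC with water. The comparison of the 2 average effects was added after the data were seen. Scripts were tested on simulated data.

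Background was the 95th percentile of 5222 negative control probe sets per array. For a bound, the dimmer group's values were raised to that level where they lay under it, and the mean was set against that of the brighter group. The number of arrays limits the precision.

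Genes named in the text were Ppargc1a, the 15 largest non-overlapping rises and falls past the test, up to 4 members per list, the 5 with the smallest departure p, and the 8 with the largest smaller effect in each class of combined effects, leaving out predicted and olfactory genes. Members so chosen from lists with no call are mostly not described. Other list members named were chosen after their values were seen. The comparison, the 46 lists and the alternatives were chosen with earlier results of these data known. Of 965 list entries 911 were measured. Promoters came from RefSeq, GRCm38.p6. Equal replicate numbers were not treated as pairs in the main fit. Alternatives were requantile normalization, 2 filters on dim genes, a replicate block, mean probe sets, a trended robust prior, a control covariate, the 6 arrays alone and each array left out.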

Additional observations from a re-analysis of the deposited data

Results flagged for a closer look

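In 4 of the 120 named genes every phenformin array moved one way against the water arrays in PGC-1alpha explants and the other way in VC explants. Over all 19505 genes tested, 68 (0.349%) showed this pattern. Akr1c18, Adamts15 and Slc6a13 are among the 120 because their departure p was among the 5 smallest, so the count of 4 is a description. None of the 4 departures from additivity passed adjustment by limma over all genes.

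Adamts15, a secreted matrix metalloprotease, had 5.88, 5.94 and 5.88 in PGC-1alpha phenformin explants against 5.49, 5.10 and 5.40 in PGC-1alpha water, and 5.44, 5.37 and 5.56 in VC phenformin against 5.91, 5.97 and 5.76 in VC water explants. Its departure was 1.00 ± 0.17 (adjusted p = 0.183), all in the range of the negative controls. Slc6a13, a GABA transporter, had a departure of 0.96 ± 0.17 (adjusted p = 0.228), with 8.03, 7.88 and 7.91 in PGC-1alpha phenformin explants against 7.44, 7.64 and 7.48 in PGC-1alpha water, and 7.23, 6.97 and 7.16 in VC phenformin against 7.59, 7.85 and 7.53 in VC water explants.

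Akr1c18, which inactivates progesterone, had a departure of -1.74 ± 0.27 (adjusted p = 0.164) in the control range, with 6.32, 6.30 and 6.65 in PGC-1alpha phenformin explants against 6.87, 6.84 and 7.48 in PGC-1alpha water, and 7.06, 7.08 and 6.61 in VC phenformin against 6.02, 5.89 and 5.55 in VC water explants. Plat had a departure of -0.47 ± 0.14 (adjusted p = 0.928), lower with phenformin in PGC-1alpha explants (-0.27) and higher in VC explants (0.20).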

How the results depend on the processing

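The joint comparison called 732 genes (313 higher, 419 lower), 0 for departure, and 48 and 168 with both effects in the same and in opposite directions. Restricted to genes above the median level, the counts were 1165 (553 higher), 86 and 322; above the negative controls in at least 3 arrays, 1174 (557 higher), 1 departure, 99 and 348; with a trended robust prior, 1232 (594 higher, 638 lower), 3 departures, 90 and 328. With the control probe covariate they were 9 (6 higher, 3 lower), 0 departures, 0 and 0, and 98 of 103 called named genes were not called. The 6 arrays alone gave 353 (151 higher, 202 lower). The sample titles number the replicates and name no pairing. With group means removed, 18 same-number pairs had r from -0.37 to 0.13, 1 above 0.1, and a different-number pair reached 0.41. With 3 arrays a group these values cannot decide whether arrays were paired. With the replicate block the counts were 538 (217 higher, 321 lower), 31 and 107. Requantile normalization gave 871 (330 higher, 541 lower), and mean probe sets 731. Leaving out 1 array gave 334 to 910 called genes (139 to 395 higher, 195 to 515 lower), 0 to 1 departures, 25 to 71 in the same and 77 to 207 in opposite directions. The lowest joint count was without PGC-1alpha phenformin array 1, and VC water array 2, which stands apart, left 487. Falls outnumbered rises except without VC water array 3 (318 higher, 290 lower) and with the control covariate, and genes at an unadjusted departure p under 0.05 numbered 704 to 2266 against 1018. Of the 103 called named genes 60 passed in each such fit, and 76 without VC water array 2. Signs turned in 3 uncalled genes near 0. Leaving out 1 array gave -0.041 to 0.061 for Adamts15, -0.10 to 0.11 for Suox and -0.15 to 0.26 for Pltp, and requantile normalization gave -0.018 for Adamts15 and -0.0020 for Suox. Of 916 list medians 39 moved by more than the spread. The cause of these changes was not tested. Signal over background limits the 108 rises and 107 falls with both groups in the control range.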
